A study of Homo sapiens with 9 samples.

Results

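Transcript levels of 10 genes of the Wnt pathway were followed in A375R melanoma cells treated with a degrader compound or with part of it. The genes are the secreted antagonists DKK1 and DKK3, the Dishevelled antagonist DACT1, the destruction complex scaffolds AXIN1 and AXIN2, beta-catenin itself (CTNNB1), its DNA-binding partners LEF1 and TCF7L2, the receptor-removing ubiquitin ligase ZNRF3, and the ligand WNT5A. They were picked by gene name from the 62710 genes of the deposited table, with earlier results of these data known. Their differences between treatments are therefore given as a description, and no exact p-value is printed for them. Statements that a member passed or missed a threshold are part of that description and are no test of the choice. Of the 10 genes, 9 had a mean of at least 10 normalized counts over the libraries and entered the fit, and AXIN2 did not.

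In canonical Wnt signaling, a Wnt ligand bound to a Frizzled receptor and its LRP co-receptor inactivates the complex of AXIN, APC and GSK3 that otherwise marks beta-catenin for destruction. Beta-catenin then accumulates, enters the nucleus and acts with TCF and LEF proteins on target genes. Several of these targets, among them AXIN2, ZNRF3, LEF1 and DKK1, feed back on the pathway. WNT5A acts mostly through beta-catenin-independent routes and, in melanoma, is known for its association with invasive cell states. Beta-catenin phosphorylated on a serine was among the RNF4-stabilized oncoproteins that the study followed at the protein level, whereas the values below are all of messenger RNA.

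A375R is a human melanoma line resistant to PLX4032, a vemurafenib analog that was also kept in its culture medium. R4VPL3-1 joins a moiety that binds the ubiquitin ligase RNF4 to one that binds the ubiquitin ligase VHL, and VHL-r is the VHL-binding moiety alone. Cells received 10 µM R4VPL3-1 or 10 µM VHL-r for 2 h, and the control libraries, which carry a wild-type label with no dose, are the DMSO-treated cells of the study's methods, each treatment with 3 libraries. All groups share the same resistant line, and the study's methods describe the 3 libraries of a treatment as biological repeats. The libraries held between 26435568 and 32085626 reads assigned to genes. A normalized count is the number of reads of a gene divided by a size factor of its library. Of the melanocyte lineage markers, SOX10, MITF and DCT had means of 12050, 1260 and 1277 normalized counts over the 9 libraries, MLANA was at 0 in every library, and TYR had a mean of 0.354. The pigment cell markers MLANA and TYR were therefore absent or nearly so, unlike DCT. TYRP1 had a mean of 6.38, with 33.6 in its highest library, of R4VPL3-1.

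Per kilobase of annotated exon, DKK1 had the highest value of the 10 genes in DMSO-treated cells, at 1624 ± 244 normalized counts per kb (SD, n = 3). CTNNB1 followed at 1231 ± 20.7. TCF7L2 and AXIN1 followed at 269 ± 26.5 and 256 ± 25.4 normalized counts per kb, a difference smaller than their spread. LEF1 and WNT5A came next at 162 ± 8.10 and 159 ± 7.32, again closer than their spread. ZNRF3 stood at 64.9 ± 2.60, DACT1 at 32.8 ± 7.91, DKK3 at 22.2 ± 1.11 and AXIN2 at 1.11 ± 0.324 normalized counts per kb. The exon length used is the union over all annotated transcripts, which lowers the value of genes with many isoforms. This union was 11759 bases for CTNNB1 and 2221 for DKK1, and 11958 for DKK3 and 4584 for DACT1. The order within these pairs therefore depends on the length used. Before division by length, CTNNB1 stood at 14475 normalized counts with DMSO, above DKK1 at 3607. Per kilobase of the union, CTNNB1 led after VHL-r at 1267 ± 15.2 and DKK1 followed at 311 ± 22.2 normalized counts per kb. After R4VPL3-1, DKK1 and AXIN1 stood at the same level, at 257 ± 18.6 and 257 ± 13.3 normalized counts per kb, far below CTNNB1 at 1193 ± 46.2. DACT1 was at 5.00 ± 1.91 against 17.7 ± 2.81 normalized counts per kb for DKK3 after VHL-r, and at 4.57 ± 1.59 against 17.2 ± 3.79 after R4VPL3-1. Before division by length, DACT1 was below DKK3 already with DMSO, at 150 against 265 normalized counts.

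**Figure D1:**
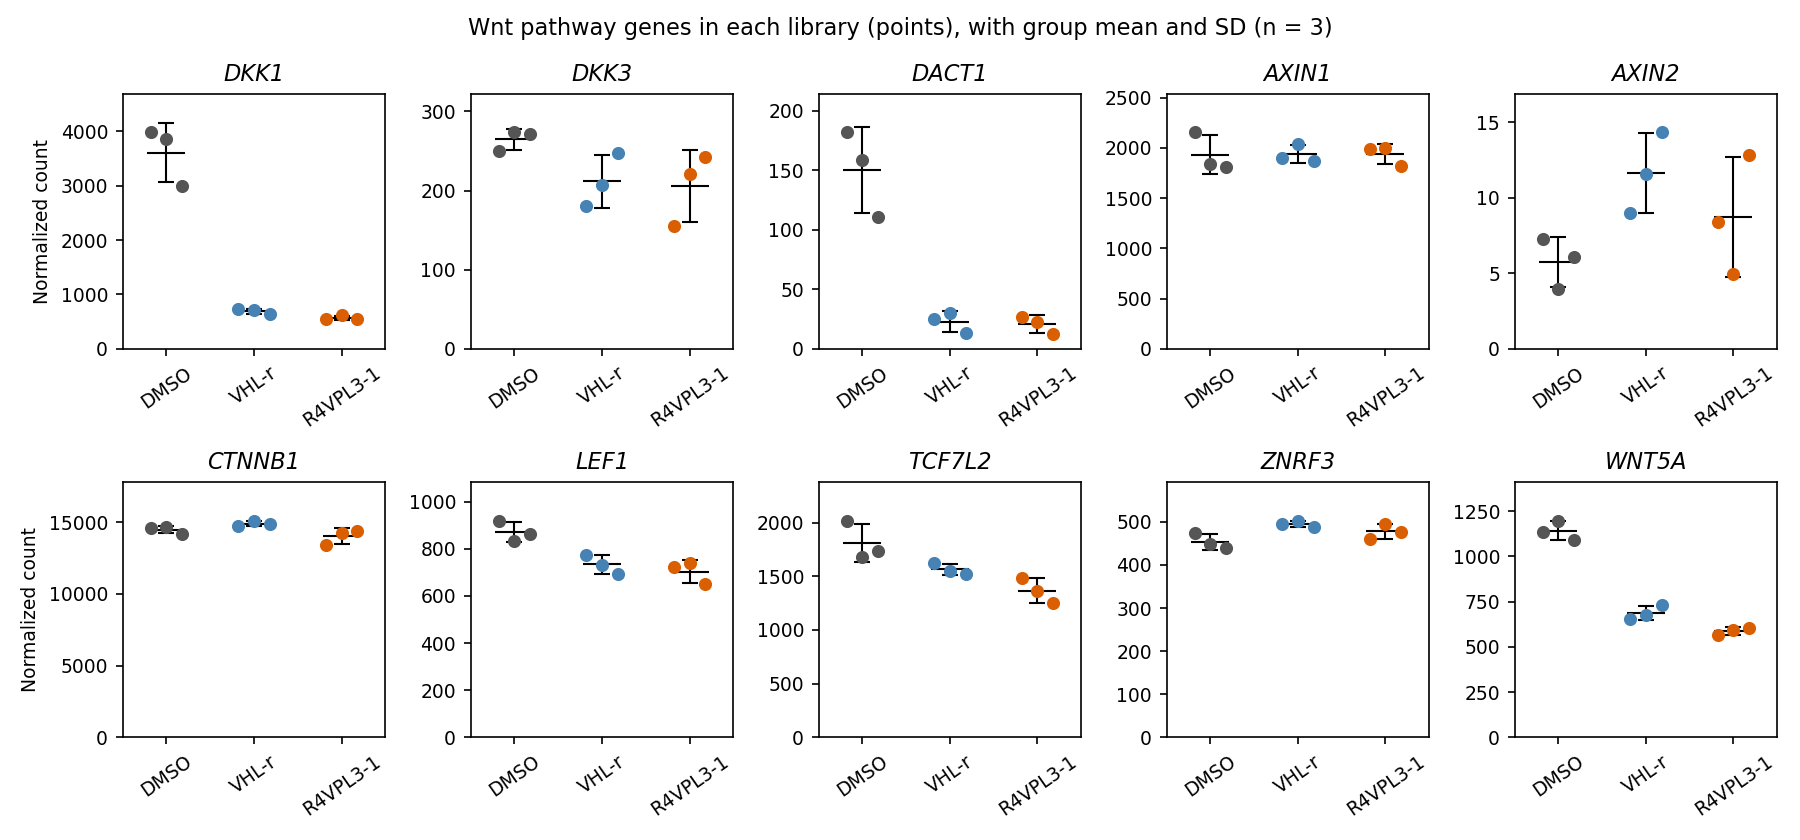
Normalized counts (y axis, each panel from 0 on its own scale) of the 10 Wnt pathway genes in the 9 libraries, by treatment (x axis). Points are libraries, drawn for replicates 1 to 3 from left to right, and bars give the group mean and SD; DKK1, DACT1 and WNT5A stand far lower in all 6 compound-treated libraries than in the 3 DMSO libraries, while the group means of CTNNB1 range from 14031 to 14902 and those of AXIN1 from 1933 to 1936.

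DKK1 encodes a secreted protein that binds LRP co-receptors and blocks canonical Wnt signaling. Its normalized counts were 3977, 3858 and 2985 in the DMSO libraries. They were 731, 708 and 636 after VHL-r, and 547, 619 and 547 after R4VPL3-1. Every compound-treated library thus lay below every DMSO library, and the highest R4VPL3-1 library lay below the lowest VHL-r library. The mean fell from 3607 ± 541 (SD, n = 3) to 692 ± 49.4 after VHL-r, which is 19.2% of the DMSO level, and to 571 ± 41.4 after R4VPL3-1, which is 15.8%. On the log2(normalized count + 1) scale the differences from DMSO were -2.37 (SE 0.088; 95% interval -2.55 to -2.19) for VHL-r and -2.65 (SE 0.088; 95% interval -2.83 to -2.47) for R4VPL3-1. Among 15230 genes ordered from the most lowered, DKK1 ranked 3 in the VHL-r comparison and 7 in the R4VPL3-1 comparison. Both comparisons use the same DMSO libraries. In bulk RNA, less RNA per cell and fewer cells with the transcript cannot be told apart.

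Of the melanocyte lineage markers, SOX10 and MITF moved with this difference. SOX10 stood at 17547 ± 482 normalized counts with DMSO, 10200 ± 1043 with VHL-r and 8405 ± 447 with R4VPL3-1, and MITF at 1722 ± 251, 1047 ± 79.5 and 1011 ± 194, both without overlap between DMSO and either compound. The other 3 markers with a mean of at least 10 overlapped between DMSO and the compounds, with S100B at 730 ± 41.2, 677 ± 89.9 and 642 ± 90.3, DCT at 1347 ± 407, 1261 ± 239 and 1223 ± 470, and PMEL between 20.9 and 36.8 over the 9 libraries. The summed level of the 8 markers, most of it SOX10, was 20733 to 22517 in the DMSO libraries, 11788 to 14670 after VHL-r and 10359 to 12525 after R4VPL3-1. The part of SOX10 and MITF in the Wnt gene differences was not tested. The 3 markers of dedifferentiated melanoma (AXL, NGFR and EGFR), most of it AXL, summed to 11867 to 13783, 10749 to 11864 and 10680 to 11746 normalized counts in the same order of treatments. They did not move alike. AXL stood at 10993 ± 978, 9751 ± 520 and 9750 ± 494 and NGFR at 1088 ± 85.3, 998 ± 84.1 and 878 ± 73.6. EGFR had higher means with the compounds, at 469 ± 21.1, 506 ± 37.9 and 585 ± 75.5. The 3 epithelial markers summed to 350 to 391, 300 to 320 and 250 to 298. Most of this was KRT14, with a mean of 295, while EPCAM had a mean of 5.82. The 3 endothelial markers summed to at most 32.6 normalized counts in any library.

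DACT1 encodes a cytoplasmic protein that binds Dishevelled and restrains Wnt signaling inside the cell. Its DMSO libraries held 182, 158 and 111 normalized counts. The VHL-r libraries held 25.0, 30.5 and 13.3, and the R4VPL3-1 libraries 27.1, 22.9 and 12.9. No compound-treated library overlapped the DMSO range, the compound groups overlapped each other, and the third replicate was the lowest of its group in all 3 treatments. DACT1 thus fell to 15.3% of its DMSO mean after VHL-r and to 13.9% after R4VPL3-1, with log2 differences of -2.70 (SE 0.30; 95% interval -3.32 to -2.09) and -2.82 (SE 0.30; 95% interval -3.44 to -2.20). It ranked 2 from the most lowered gene in both comparisons. The intervals are wider than those of DKK1. The compound-treated libraries held 12 to 29 reads of DACT1 each, and the coefficient of variation was 24.1% with DMSO, 38.2% with VHL-r and 34.9% with R4VPL3-1. Of its exon bases, 8.25% are shared with LINC01500 on the same strand, and reads lying on exons of both genes would not have been counted.

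The promoter sequences of these most strongly lowered genes are shown because they are the members whose 250 bases upstream of the RefSeq start held both a TCF/LEF and a TEAD sequence. The promoter table of RefSeq matched 7 of the 10 genes by symbol (not DKK3, AXIN2 and ZNRF3). Capitals mark the TCF/LEF letters (CTTTGAA) and the TEAD letters (GGAATG). The DKK1 window is chr10:52314031-52314280 and the DACT1 window is chr14:58633811-58634060, both on the plus strand of GRCh38.p14, and both are written 5′ to 3′ and end at the base before the start. An Ensembl transcript of DACT1 begins inside its window.
DKK1: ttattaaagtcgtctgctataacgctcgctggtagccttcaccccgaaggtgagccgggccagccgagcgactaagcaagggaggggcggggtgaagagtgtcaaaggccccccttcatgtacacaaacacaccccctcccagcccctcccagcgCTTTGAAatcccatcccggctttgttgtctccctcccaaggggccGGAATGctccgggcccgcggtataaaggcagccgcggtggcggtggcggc
DACT1: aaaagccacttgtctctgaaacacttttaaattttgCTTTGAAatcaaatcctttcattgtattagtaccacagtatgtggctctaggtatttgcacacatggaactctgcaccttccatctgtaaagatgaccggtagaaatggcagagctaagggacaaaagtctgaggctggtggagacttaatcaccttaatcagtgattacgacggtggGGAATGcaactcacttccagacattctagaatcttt

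In DKK1 the TCF/LEF letters lie 95 to 89 bases and the TEAD letters 50 to 45 bases upstream of the start, and in DACT1 they lie 214 to 208 and 36 to 31 bases upstream. The search took CTTTGAT or CTTTGAA for TCF/LEF, GGAATG for TEAD, TGANTCA for AP-1 and ACGTG for the hypoxia response, on both strands; the motifs do not overlap one another in these windows. The TCF/LEF letters were found in 2 of the 7 matched genes and in 6.03% of 27305 promoters, and the TEAD letters in 2 of 7 and in 11.9%. AP-1 letters were in 0 of 7 and in 6.60% of promoters, and hypoxia letters in 1 of 7, TCF7L2, and in 18.7%. These are matches of letters and no measure of binding. Only 1 window per gene was searched, and those of CTNNB1, LEF1 and WNT5A lie inside the annotated gene. The GC content of the windows was 62.8% for DKK1 and 40.8% for DACT1, against a median of 58.0% over all promoters.

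DKK3 is a divergent member of the Dickkopf family, for which binding to LRP co-receptors is not established. It stood at 250, 274 and 272 normalized counts in the DMSO libraries, at 181, 207 and 248 after VHL-r and at 155, 221 and 242 after R4VPL3-1. All compound-treated values were below all DMSO values, though by a small margin. The means were 265 ± 13.3, 212 ± 33.6 and 206 ± 45.4, with log2 differences from DMSO of -0.33 (95% interval -0.63 to -0.03) and -0.39 (95% interval -0.68 to -0.09). Neither passed an adjusted p of at most 0.05 in the fit across all genes. Of the exon bases of DKK3, 47.5% lie opposite exons of USP47. The counting used strand, and USP47 itself differed by 0.02 and 0.10 on the log2 scale.

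WNT5A, the only ligand among the 10 genes, stood at 1134, 1195 and 1091 normalized counts in the DMSO libraries. After VHL-r it stood at 652, 677 and 729, and after R4VPL3-1 at 563, 591 and 606. The 3 groups did not overlap, with DMSO highest and R4VPL3-1 lowest. The mean fell from 1140 ± 52.4 to 686 ± 39.3 after VHL-r, 60.2% of DMSO, and to 587 ± 21.8 after R4VPL3-1, 51.5%. The log2 differences were -0.73 (SE 0.067; 95% interval -0.87 to -0.59) and -0.96 (SE 0.067; 95% interval -1.10 to -0.82), and WNT5A ranked 370 and 230 among the 15230 genes. WNT5B, its closest relative, stood at 35.7 ± 8.64, 30.0 ± 7.87 and 37.7 ± 6.55 normalized counts, with adjusted p of 0.555 and 0.847 against DMSO (limma).

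The transcript of beta-catenin itself differed little. CTNNB1 stood at 14589, 14641 and 14195 normalized counts in the DMSO libraries, at 14729, 15087 and 14892 after VHL-r and at 13409, 14268 and 14415 after R4VPL3-1. The VHL-r libraries lay just above the DMSO range and the R4VPL3-1 libraries overlapped it. The log2 differences from DMSO were 0.04 (95% interval -0.04 to 0.13) and -0.05 (95% interval -0.13 to 0.04). AXIN1, the scaffold of the complex that marks beta-catenin for destruction, had means of 1933 ± 192, 1934 ± 89.3 and 1936 ± 100 normalized counts. Its libraries ranged from 1806 to 2153 with DMSO, from 1868 to 2036 with VHL-r and from 1820 to 1997 with R4VPL3-1, and the intervals of both log2 differences from DMSO ran from -0.13 to 0.14.

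LEF1 and TCF7L2, the DNA-binding proteins that carry beta-catenin to its target genes, were lower by smaller amounts. LEF1 stood at 918, 832 and 863 normalized counts in the DMSO libraries, at 773, 733 and 694 after VHL-r and at 724, 738 and 649 after R4VPL3-1. All compound-treated libraries lay below the DMSO range, at 84.2% and 80.8% of its mean. For TCF7L2 the values were 2015, 1681 and 1738 with DMSO, 1622, 1549 and 1520 with VHL-r and 1482, 1367 and 1253 with R4VPL3-1. The 3 groups of TCF7L2 did not overlap, whereas the compound groups of LEF1 overlapped each other. The TCF7L2 means were 86.3% and 75.5% of that with DMSO. The log2 differences were -0.25 and -0.31 for LEF1 (SE 0.070) and -0.21 and -0.40 for TCF7L2 (SE 0.069). In the VHL-r comparison both lost their call when DMSO replicate 1 or VHL-r replicate 3 was left out, and TCF7L2 also without VHL-r replicate 2 or without the filter on low values, at log2 differences of -0.29 to -0.21 for LEF1 and -0.26 to -0.13 for TCF7L2 over the alternatives. The relatives TCF7 and TCF7L1 stood at 115 ± 11.4 and 64.4 ± 15.7 normalized counts with DMSO, and neither passed the test in either comparison (adjusted p of 0.398 and 0.454 for TCF7, and of 0.496 and 0.580 for TCF7L1, limma).

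AXIN2 and ZNRF3 are induced by beta-catenin in many tissues and act back on the pathway, AXIN2 in the destruction complex and ZNRF3 by removing Frizzled receptors from the cell surface. AXIN2 was close to the detection limit, with 18, 34 and 26 reads summed over the 3 libraries of DMSO, VHL-r and R4VPL3-1. Its normalized counts were 7.26, 3.94 and 6.08 with DMSO, 9.01, 11.6 and 14.3 with VHL-r and 8.40, 4.97 and 12.9 with R4VPL3-1. In a fit without the filter the log2 differences were 0.91 (95% interval -0.05 to 1.88) and 0.48 (95% interval -0.49 to 1.44), so a difference was not detectable at this depth. Of the AXIN2 exon bases, 25.3% are shared with another annotated gene on the same strand, so that part of its reads may not have been counted. ZNRF3 stood at 474, 448 and 439 normalized counts with DMSO, at 495, 502 and 488 with VHL-r and at 461, 495 and 476 with R4VPL3-1. The VHL-r libraries lay above the DMSO range, by a log2 difference of 0.13 (95% interval -0.03 to 0.28), and the R4VPL3-1 libraries overlapped it, at 0.07 (95% interval -0.08 to 0.23). RNF43, the close relative of ZNRF3, was at 0 in all 9 libraries.

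**Figure D2:**
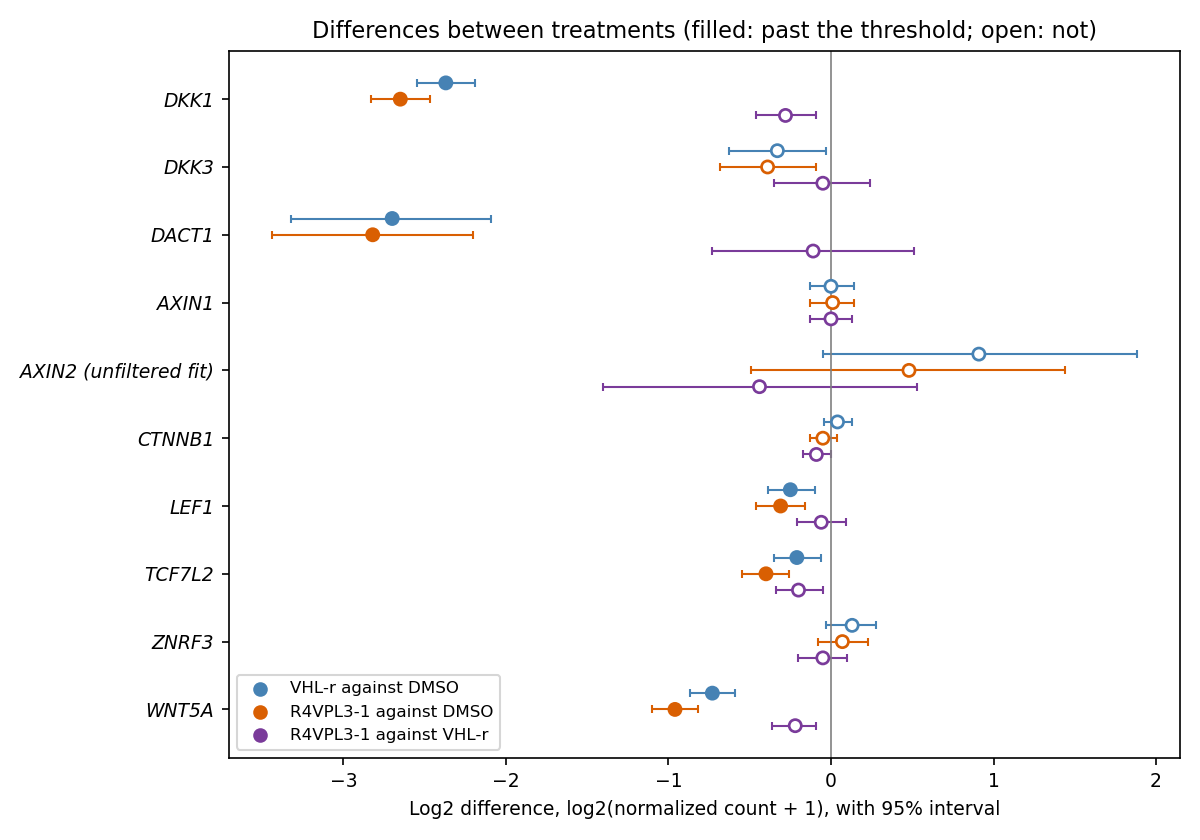
Log2 differences (x axis, log2(normalized count + 1)) of the 10 genes (y axis) between treatments, with 95% intervals from the fit across all genes; AXIN2 comes from the fit without a filter. Filled symbols passed an adjusted p of at most 0.05: DKK1, DACT1, WNT5A, LEF1 and TCF7L2 against DMSO, with no filled symbol for R4VPL3-1 against VHL-r.

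Of the 9 genes tested, 5 passed the threshold and were lower after VHL-r than after DMSO (DKK1, DACT1, WNT5A, LEF1 and TCF7L2), where 19.8% of all genes passed, 9.51% as lower. Without DMSO replicate 1, 3 of the 9 passed (DKK1, DACT1 and WNT5A). The same 5 genes passed and were lower after R4VPL3-1, where 24.9% of all genes passed, 11.8% as lower. The median log2 difference over the 9 genes was -0.25 for VHL-r and -0.39 for R4VPL3-1, beside -0.0045 and -0.0063 over all 15230 genes tested. DKK1 and DACT1 were lower by at least 1 log2 unit in both comparisons, as were 144 and 195 of the 15230 genes tested (0.946% and 1.28%), all with a call. Of the 9 genes tested, 8 did not overlap between VHL-r and DMSO, 6 of them lower (34.3% and 17.2% of all genes tested), and 6 did not overlap between R4VPL3-1 and DMSO, all 6 lower (38.0% and 18.9%). AXIN2, which was not tested, did not overlap between VHL-r and DMSO either, and was higher after VHL-r. Since the genes were chosen with these values known, the counts describe the choice and nothing is read from them.

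R4VPL3-1 and VHL-r differ by the RNF4-binding moiety and its linker, and were given at the same dose for the same time, which makes 1 pair of compounds to compare. None of the 9 genes passed the adjusted threshold between them in limma, where 1.87% of all genes passed; 4 had an unadjusted p under 0.05, and edgeR and DESeq2 on recovered reads also called 0, with 3 and 4 genes under an unadjusted 0.05. For DKK1 the log2 difference of R4VPL3-1 from VHL-r was -0.28 (95% interval -0.46 to -0.09), with no overlap between the libraries, and it passed the threshold when the replicate number was a term of the fit or when DMSO replicate 3 was left out. WNT5A differed by -0.22 (95% interval -0.36 to -0.09) and TCF7L2 by -0.20 (95% interval -0.34 to -0.05), both without overlap. CTNNB1 was at 94.1% of its VHL-r mean after R4VPL3-1, a log2 difference of -0.09 (95% interval -0.17 to -0.00), also without overlap. In all, 4 of the 9 tested genes did not overlap, each with R4VPL3-1 lower, as did 14.1% of all genes, 7.11% as lower. DACT1 differed by -0.11 with an interval from -0.73 to 0.51, which leaves room for a difference of either sign, LEF1 by -0.06 (95% interval -0.21 to 0.09) and AXIN1 by 0.00 (95% interval -0.13 to 0.13).

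The remaining genes of the pathway were taken from 9 lists by role, which name 115 further genes, 79 of them tested. Against DMSO, 21 of the 79 passed the test after VHL-r (26.6%, with 13 higher and 8 lower) and 28 after R4VPL3-1 (35.4%, with 11 higher and 17 lower). Of all 15230 genes tested, 19.8% and 24.9% passed in these comparisons, which is also the background of the counts by role below. The median log2 differences of the 79 genes were -0.0032 and -0.035. All adjusted p-values below are from limma over all genes tested, and the first value of a pair is for VHL-r and the second for R4VPL3-1, both against DMSO.

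Receptors moved in both directions. Of 14 tested, 4 passed after VHL-r and 7 after R4VPL3-1, 2 of them higher in each case. FZD8 fell from 1593 ± 106 normalized counts to 729 ± 26.4 and 676 ± 45.2, log2 differences of -1.13 and -1.24 (adjusted p of 1.54e-10 and 1.52e-11), and all 6 compound-treated libraries lay below the DMSO range. FZD2 fell from 477 ± 9.31 to 323 ± 35.2 and 265 ± 8.30 (adjusted p of 8.68e-05 and 3.81e-07). FZD5 rose from 235 ± 18.7 to 343 ± 5.53 and 351 ± 26.2 (adjusted p of 1.91e-04 and 7.65e-05). The co-receptors LRP5 and LRP6, through which DKK1 acts, differed from DMSO by at most 0.02 on the log2 scale (adjusted p of 0.980 and 0.905 for LRP5, and of 0.837 and 0.955 for LRP6). ROR1 and RYK, receptors for WNT5A, differed by 0.11 and 0.10 for ROR1 (adjusted p of 0.624 and 0.638) and by -0.10 and -0.21 for RYK (adjusted p of 0.179 and 0.00178).

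Of the ligands besides WNT5A, 5 of 18 were tested, and 3 passed after VHL-r and 1 after R4VPL3-1. WNT2B, an activator of canonical signaling, rose from 33.8 ± 10.3 normalized counts to 82.3 ± 7.65 and 88.9 ± 13.8 (adjusted p of 7.65e-05 and 2.26e-05). WNT9A rose after VHL-r by 0.43 on the log2 scale (adjusted p 0.0173) and WNT3 fell from 107 ± 6.42 to 77.8 ± 3.84 (adjusted p 0.0239); WNT9A no longer passed when DMSO replicate 2 or 3 or VHL-r replicate 2 was left out, nor did WNT3 when DMSO replicate 1 or 2 or VHL-r replicate 2 or 3 was left out, or with DESeq2. On the side of secretion and R-spondins, none of 3 genes passed after VHL-r by limma, edgeR or DESeq2, or at an unadjusted p under 0.05, and LGR4, an R-spondin receptor, fell after R4VPL3-1 by 0.21 on the log2 scale (adjusted p 0.0295), a call that was lost without any 1 of the DMSO libraries or without R4VPL3-1 replicate 1 or 2 (adjusted p of 0.00292 to 0.141 over the alternatives).

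Among extracellular antagonists other than DKK1 and DKK3, 5 of 16 were tested. None passed after VHL-r by limma, edgeR or DESeq2, or at an unadjusted p under 0.05, and SFRP1, which binds Wnt ligands, fell after R4VPL3-1 from 7934 ± 244 to 7174 ± 427 normalized counts (adjusted p 0.0218; 0.00334 to 0.148 over the alternatives, lost without replicate 1 or 2 of DMSO or of R4VPL3-1). DKK2 had a mean of 3.31 over the 9 libraries and DKK4 was at 0 in all, so DKK1 and DKK3 were the members of their family above the filter.

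Feedback inhibitors other than the 10 genes gave 2 calls among 4 tested in each comparison, both higher. NKD1, which like DACT1 binds Dishevelled, rose from 67.7 ± 6.81 normalized counts to 112 ± 10.2 and 92.8 ± 6.71 (adjusted p of 0.00121 and 0.0299). DACT3, a relative of DACT1, rose from 86.7 ± 9.82 to 133 ± 22.0 and 120 ± 15.0 (adjusted p of 0.00700 and 0.0309), the opposite direction to DACT1, and DACT2 was at 0 in all libraries. The R4VPL3-1 calls of NKD1 and DACT3 were less steady, with adjusted p of 0.0244 to 0.116 for NKD1 and 0.0144 to 0.134 for DACT3 over the alternatives. That of NKD1 was lost without DMSO replicate 2 or 3, without R4VPL3-1 replicate 1 or 3, without the filter and with DESeq2, and that of DACT3 without DMSO replicate 1 or R4VPL3-1 replicate 1 or 2. The VHL-r call of DACT3 was lost without VHL-r replicate 1 (adjusted p of 0.00476 to 0.0586 over the alternatives).

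In the destruction complex and Dishevelled list, 5 of 20 genes passed after VHL-r (4 higher) and 7 after R4VPL3-1 (4 higher). FRAT2, an inhibitor of GSK3, rose from 675 ± 77.0 to 980 ± 54.6 and 1017 ± 25.3 normalized counts (adjusted p of 1.92e-05 and 3.98e-06), and FRAT1 rose after R4VPL3-1 by 0.54 on the log2 scale (adjusted p 0.00740). CSNK1G1, a casein kinase, rose by 0.44 and 0.42 (adjusted p of 2.30e-05 and 2.90e-05). TNKS, the tankyrase that marks AXIN proteins for destruction, rose by 0.28 and 0.21 (adjusted p of 0.00198 and 0.0129, the latter lost without DMSO replicate 2 or R4VPL3-1 replicate 1). GSK3B differed after VHL-r by 0.16 (adjusted p 0.0263). The calls as lower were AMER1 in both comparisons, at -0.23 and -0.23 (adjusted p of 0.0127 and 0.00855), and CSNK1A1 and FBXW11 after R4VPL3-1. CSNK1A1 differed there by -0.12 (adjusted p 0.0466) and FBXW11 by -0.13 (adjusted p 0.0328). The calls of GSK3B, AMER1, CSNK1A1 and FBXW11 were not followed over the alternatives. APC, GSK3A and DVL2 did not pass in either comparison, with APC at 573 ± 40.2, 583 ± 10.2 and 588 ± 27.4 normalized counts.

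Among nuclear partners besides the listed members, 3 of 12 passed after VHL-r (2 higher) and 5 after R4VPL3-1 (1 higher). TLE3, a co-repressor that binds TCF and LEF proteins, rose by 0.44 and 0.23 (adjusted p of 3.30e-05 and 0.00972, the latter lost without replicate 2 of DMSO or of R4VPL3-1). BCL9L, a co-activator of beta-catenin, fell after R4VPL3-1 by 0.28 (adjusted p 7.64e-04), and PYGO1, another co-activator, had differences of -0.23 and -0.26 (adjusted p of 0.0383 and 0.0161). The VHL-r call of PYGO1 was lost in 8 of the 20 alternatives, among them each that left out a DMSO or VHL-r library, and its R4VPL3-1 call without replicate 2 of DMSO or of R4VPL3-1. PYGO2 rose after VHL-r by 0.16 (adjusted p 0.0193), which was lost without DMSO replicate 2 or VHL-r replicate 2 or 3. In the planar polarity branch, none of 10 genes passed after VHL-r by limma, edgeR or DESeq2 (1 at an unadjusted p under 0.05), and CELSR3 rose after R4VPL3-1 by 0.22 (adjusted p 0.0379, lost without replicate 1 or 2 of DMSO, replicate 2 or 3 of R4VPL3-1 or the filter).

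Known beta-catenin target genes were split. Of 8 tested besides the listed members, 5 passed after VHL-r (2 higher and 3 lower) and 4 after R4VPL3-1 (1 higher and 3 lower). MYC fell from 1185 ± 118 normalized counts to 406 ± 25.3 and 347 ± 46.3 (adjusted p of 1.86e-10 and 9.80e-12). CCND1, which encodes cyclin D1, fell from 26704 ± 3058 to 20190 ± 713 and 17951 ± 619 (adjusted p of 4.01e-05 and 2.78e-07). NKD1 rose, as given above, whereas LGR5, NOTUM and APCDD1 stayed under a mean of 10 and SP5 and ASCL2 were at 0 in all libraries. TNFRSF19 and BMP4 did not pass in either comparison. MYC and CCND1 answer to many other pathways, so the list names known targets and does not measure beta-catenin activity.

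Between the compounds, 1 of the 79 genes passed (1.27%), beside 1.87% of all genes tested. FZD1 was lower after R4VPL3-1 than after VHL-r, at 1335 ± 127 against 1626 ± 149 normalized counts, a log2 difference of -0.29 (adjusted p 0.0460). This call was lost in 12 of the 20 alternatives, among them edgeR on recovered reads and those without DMSO replicate 2, VHL-r replicate 2 or 3 or R4VPL3-1 replicate 1 or 2, with adjusted p from 0.00145 to 0.341.

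**Figure D3:**
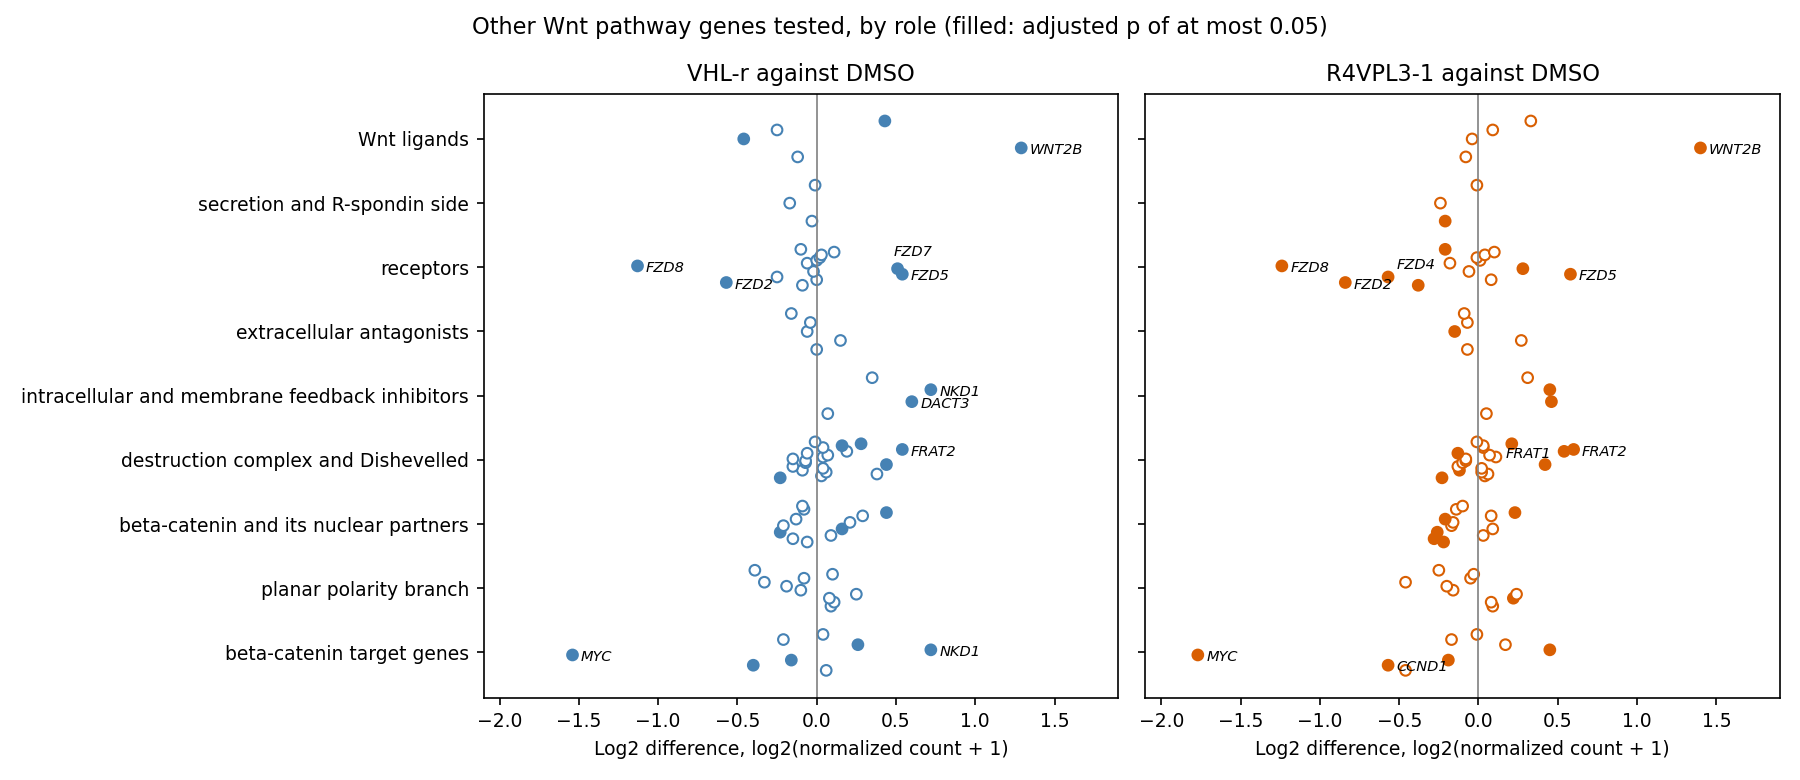
Log2 differences (x axis, log2(normalized count + 1)) of the 79 tested Wnt pathway genes outside the set of 10, by role (y axis), for VHL-r (left) and R4VPL3-1 (right) against DMSO. Each point is a gene, filled where its adjusted p was at most 0.05, and genes in more than 1 role appear in each; MYC and FZD8 lie lowest and WNT2B highest in both panels.

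The genes whose pattern over the 9 libraries lay closest to DKK1 were sought by the root mean square distance of log2 values, each gene centred on its own mean. They were CXCL1 at 0.200 (a chemokine), RIPK4 at 0.223 (a kinase) and LINC02915 at 0.249 (a long noncoding RNA), where DKK1 itself deviated from its mean by 1.20. For DACT1, which deviated by 1.37, the nearest gene was DKK1 at 0.371, followed by PRDM1 at 0.421 and S1PR1 at 0.457. CXCL1 differed from DMSO by -2.03 and -2.57 and RIPK4 by -2.04 and -2.75 on the log2 scale. This measure is a description over 9 libraries whose main division is DMSO against the compounds.

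No genomic neighbour of DKK1 or DACT1 passed the test as lower. DKK1 lies at chr10:52314281-52318042 on the plus strand, and 10.2% of its exon bases lie opposite exons of PRKG1-AS1. That antisense RNA, with a mean of 16.8 normalized counts, differed from DMSO by -0.45 and -0.67 (adjusted p of 0.447 and 0.191). The next tested gene on the other side, LNCAROD, also low with a mean of 29.3, differed by -0.35 and -0.68 (adjusted p of 0.415 and 0.0719). DACT1 lies at chr14:58633967-58648321 on the plus strand. Its neighbour KIAA0586 rose after VHL-r by 0.17 (adjusted p 0.0491) and differed after R4VPL3-1 by 0.06 (adjusted p 0.493), and DAAM1 on the other side differed by 0.25 and 0.24 (adjusted p of 0.118 for both). Over the nearest tested gene on each side of the 10 genes, 20 in all, 2 passed after VHL-r, 0 of them lower. After R4VPL3-1, 2 passed, 1 of them lower. Of all genes tested, 19.8% and 24.9% passed in these comparisons, 9.51% and 11.8% as lower.

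The 3 most strongly lowered genes were also the shortest of the 10. DKK1 spans 3.76 kb, DACT1 14.4 kb and WNT5A 24.8 kb, whereas the others span from 33.1 kb for AXIN2 to 217 kb for TCF7L2. Their 3′ untranslated regions held the instability pentamer ATTTA at 3.53 per kb in DKK1, 3.37 in DACT1 and 3.43 in WNT5A, where the median over 11398 tested genes was 1.92, which places them at percentiles 78.3, 76.3 and 77.0. ZNRF3, which did not pass the threshold in either comparison, held 2.85 per kb, and AXIN2, which was not tested, held 2.12. LEF1 held 1.65, DKK3 1.40, TCF7L2 1.17 and CTNNB1 0.908, and AXIN1 held none in its 682 bases. Both features are descriptions of 10 chosen genes.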

How the data were processed

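Poly(A) RNA of A375R cells was sequenced in 9 directional libraries constructed together, 3 per treatment. Per the study's methods, the authors aligned reads to GRCh38 with Ensembl annotation by STAR, counted them per gene with htseq-count in reverse (strand-specific) mode and deposited a normalized signal, the count divided by a size factor from DESeq2 (version 1.36.0). Coordinates are on GRCh38; 62639 of 62710 gene identifiers matched the GENCODE annotation used here for exons. Reads were recovered by multiplying with the size factor: 100.0% of values came out within 0.1 reads of a whole number, and totals ran from 26435568 to 32085626.

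Values were tested as log2(value + 1) with limma 3.58.1 (trend option, R 4.3.3). Genes whose mean reached 10 entered a single-factor fit of all 9 libraries, 15230 in all, with calls at a p of 0.05 or less after Benjamini-Hochberg adjustment. The script was tested on simulated data. Fold changes on this scale understate those of low genes. An exact permutation test of 3 against 3 libraries cannot go below p = 0.1 and was not used. Count tests were alternatives, run on those recovered reads with edgeR (version 4.0.16) and DESeq2 (version 1.42.0).

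The 10 genes, the role lists and the alternatives were chosen with earlier results of these data known. Named besides the 10 were, per role list and contrast, up to 3 genes with the largest difference among those past the threshold, the relatives of the 10 genes, and for members that differed by at least 1 log2 unit the 3 nearest genes. LRP5, LRP6, ROR1, RYK, APC, GSK3A, GSK3B, AMER1, CSNK1A1, FBXW11, DVL2, TNFRSF19 and BMP4 were named after their values were seen. The same holds for the targets under the filter and the genomic neighbours.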

Additional observations from a re-analysis of the deposited data

How the results depend on the processing

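DKK1, DACT1 and WNT5A kept their direction and call against DMSO in all 20 alternatives, for both compounds, as did LEF1 and TCF7L2 for R4VPL3-1. Log2 differences of DKK1 ranged from -2.50 to -2.30 and from -2.78 to -2.57, and those of DACT1 from -2.94 to -2.37 and from -3.03 to -2.52. Leaving out 1 library at a time gave 3 to 6 calls among the 9 tested members for VHL-r against DMSO, with 3 calls without DMSO replicate 1. There were 5 to 6 calls for R4VPL3-1 against DMSO and 0 to 1 between the compounds, where DKK1 was called without DMSO replicate 3. Over all genes these counts ranged from 2286 to 3201, from 2866 to 3895 and from 182 to 358 (182 without R4VPL3-1 replicate 1, against 285 with all libraries). DKK3 gained a call in 4 alternatives of each comparison with DMSO. Among the 79 other pathway genes, the 1 call between the compounds became 0 without a filter, with a mean of at least 50, with TMM or upper quartile scaling, with the robust option, with only the 6 libraries compared and with edgeR, 2 with DESeq2, and 0 to 3 with a library left out; against DMSO these counts ran from 16 to 23 and from 19 to 30. The cause of these changes was not tested. Rescaling moved the median of all genes by under 0.1 on the log2 scale.

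The labels number the replicates and do not say what libraries with the same number share. In the deposited library names, same-numbered libraries of the 3 treatments carry consecutive sample numbers. Deviations of same-numbered libraries from their group means correlated between -0.006 and 0.121. For differently numbered libraries of different treatments the correlations ran lower, from -0.148 to 0.098. Whether same-numbered libraries share a processing batch was not tested. A replicate block gave 1 call among the 9 tested members between the compounds (DKK1) and 3 among the other pathway genes. Against DMSO it gave 6 calls among the 9 tested members for each compound. On the third principal component, with 9.1% of the variance, replicate 3 of every treatment lay between 10.3 and 16.2 and all other libraries were below 0. Depth limits AXIN2, with 18 to 34 reads per treatment.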
